A study of Mus musculus with 8 samples.

Results

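Gene expression in 8 mouse lungs at E14.5, the pseudoglandular stage of lung development, was described by a split that the group labels do not give, between 4 arrays with a low and 4 arrays with a high signal of Etv5. The sets were chosen by their measured Etv5 values, which went with the replicate number in the array titles and not with the titled group. The arrays numbered 1 and 2 in each labelled group (experimental 1 and 2, control 1 and 2) formed the Etv5-low set, and those numbered 3 and 4 (experimental 3 and 4, control 3 and 4) formed the Etv5-high set, so that all 8 of the 8 arrays of the series were used and each set held 2 arrays of either label. Embryos labelled experimental carried Tg(tet(o)sFgfr2b)/+ on a Rosa26 rtTA/rtTA genotype, and those labelled control were littermates without the Tg(tet(o)sFgfr2b) transgene. Because Etv5 did not follow these labels, each array is named only by its label and number (experimental 1 is the array so labelled). Both therefore carried the reverse tetracycline transactivator from the ubiquitous Rosa26 locus, and the mothers of both received 1 intraperitoneal injection of doxycycline, 0.0015 mg per g of the mother's weight, and were killed 9 h later. RNA was isolated from the whole left lobe of each lung, so every value is a mixture of epithelium, mesenchyme, vessels and blood. The sources used here do not say whether a replicate number stands for a litter, a day or a slide. A signed difference below is the mean log2 signal of the arrays numbered 1 and 2 minus that of the arrays numbered 3 and 4, with the standard error (SE) from 4 arrays in each set, and 1 unit is a 2-fold difference.

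At this stage the lung epithelium branches under the control of Fgf10, a ligand secreted by the distal mesenchyme that acts on the receptor Fgfr2b of the epithelial tips. In the tips the receptor signals through the MAPK cascade, and the Ets factors Etv4 and Etv5, the Sprouty and Dusp feedback inhibitors and the progenitor factor Sox9 are known to lie downstream. The same distal cells begin to express surfactant genes, which later mark alveolar type 2 (AT2) cells, while the epithelium returns Hedgehog, Wnt and Bmp ligands to the mesenchyme. The transgene, once induced, provides a free ectodomain of the receptor that competes with it for ligand.

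The split on Etv5 was known from earlier work on these values, so the contrast between the sets is a description and no test was run on it. Etv5 had a log2 signal of 10.42 and 10.43 in experimental 1 and 2 and of 10.09 and 10.57 in control 1 and 2. In experimental 3 and 4 it was 13.11 and 13.26, and in control 3 and 4 it was 13.18 and 13.26. The array of the low set nearest to the gap was control 2, and the nearest of the high set was experimental 3, with 2.55 log2 units between them and no array inside the gap. The mean difference was −2.83 ± 0.11, or 7.09-fold, and it was −2.76 within the arrays labelled experimental and −2.89 within those labelled control. A gene is called lower or higher below where the 4 values of one set did not overlap the 4 values of the other and the means differed by at least 0.5. By this rule 452 of 24583 genes (1.84%) were lower and 380 (1.55%) were higher in the arrays numbered 1 and 2, and with a difference of at least 1 there were 127 lower (0.517%) and 51 higher (0.207%). Sets that did not overlap, whatever the size of the difference, were found in 2596 genes (10.6%). The balance of directions depends on the centring of the arrays, since centring on the pan-epithelial list gave 198 lower and 1203 higher genes (84 and 135 by at least 1), and centring on housekeeping genes gave 398 and 452. The shares at the deposited scaling are the background for every count below, and since the split rests on the same contrast nothing is read from a count that exceeds them.

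Surfactant genes were among the genes that lay furthest apart, together with a transporter, and 1 protease gene stood alone at the other end. Sftpb, which encodes surfactant protein B, had 6.94 and 6.91 in experimental 1 and 2, 6.66 and 8.72 in control 1 and 2, 11.75 and 11.53 in experimental 3 and 4, and 11.77 and 11.15 in control 3 and 4. The sets did not overlap, although control 2 lay well above the other 3 arrays of its set (difference −4.24 ± 0.50, 18.9-fold). Sftpa1, which encodes surfactant protein A, had 4.31, 4.09, 4.85 and 4.88 in experimental 1 and 2 and control 1 and 2, against 8.86, 8.61, 8.88 and 8.45 in experimental 3 and 4 and control 3 and 4 (−4.17 ± 0.22). Slco4c1, an organic anion transporter, had the lowest difference of all named genes, with 2.27, 2.88, 2.43 and 2.71 in the low set and 6.80, 6.76, 6.70 and 7.04 in the high set (−4.25 ± 0.15). Values of Slco4c1 in the low set were close to the lowest value of the arrays, 2.00, where the scale is compressed, and a second, dimmer spot of the gene differed by −0.69. At the other end stood Cym, which encodes the gastric protease chymosin. It had 14.34 and 14.10 in experimental 1 and 2 and 13.77 and 13.91 in control 1 and 2, against 10.23, 11.08, 10.55 and 10.90 in experimental 3 and 4 and control 3 and 4 (3.34 ± 0.23, 10.1-fold). No other called gene was higher by as much.

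The promoters of these genes, the 3 at the lower end and the 1 at the upper end of the difference, are printed 5′ to 3′ on the coding strand, from 250 bases before to 50 bases after the start of the RefSeq transcript (GRCm38.p6). Sftpb lies at chr6:72304360-72304659 on the plus strand, Sftpa1 at chr14:41131538-41131837 on the plus strand, Slco4c1 at chr1:96872122-96872421 on the minus strand and Cym at chr3:107221683-107221982 on the minus strand. Capitals mark matches, on either strand, to GCNCTNNAG, the core recognised by the lung factor Nkx2-1, to AGGAAG, an Ets core as used by Etv4 and Etv5, and to TGTTTAC, a forkhead core.
Sftpb: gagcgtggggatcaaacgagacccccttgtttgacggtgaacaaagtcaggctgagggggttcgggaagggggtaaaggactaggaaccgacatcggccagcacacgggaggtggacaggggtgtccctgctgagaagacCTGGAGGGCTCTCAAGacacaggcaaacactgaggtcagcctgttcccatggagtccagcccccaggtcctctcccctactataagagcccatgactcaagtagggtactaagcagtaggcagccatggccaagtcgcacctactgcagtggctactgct
Sftpa1: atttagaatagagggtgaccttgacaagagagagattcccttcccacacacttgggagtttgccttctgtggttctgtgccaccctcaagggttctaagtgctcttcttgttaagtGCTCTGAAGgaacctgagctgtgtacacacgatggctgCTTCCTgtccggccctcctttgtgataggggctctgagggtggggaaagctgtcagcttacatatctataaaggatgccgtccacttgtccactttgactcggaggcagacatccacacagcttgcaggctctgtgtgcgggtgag
Slco4c1: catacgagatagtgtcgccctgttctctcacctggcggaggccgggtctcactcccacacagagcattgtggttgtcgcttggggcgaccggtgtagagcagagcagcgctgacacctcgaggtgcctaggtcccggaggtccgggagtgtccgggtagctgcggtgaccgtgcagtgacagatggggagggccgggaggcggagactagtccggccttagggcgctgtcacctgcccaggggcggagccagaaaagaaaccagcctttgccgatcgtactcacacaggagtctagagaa
Cym: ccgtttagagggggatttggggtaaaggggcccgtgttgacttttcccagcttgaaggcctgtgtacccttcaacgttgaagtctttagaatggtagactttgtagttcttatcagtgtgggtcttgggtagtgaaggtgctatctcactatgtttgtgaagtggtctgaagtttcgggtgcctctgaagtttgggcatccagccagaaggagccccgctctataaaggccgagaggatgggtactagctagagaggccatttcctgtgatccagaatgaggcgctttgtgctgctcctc
In the Sftpb promoter the capitals are 2 overlapping matches to the Nkx2-1 core, one on each strand, and in the Sftpa1 promoter they are 1 Nkx2-1 match followed by 1 Ets match on the other strand. The promoters of Slco4c1 and Cym held no match to any of the 3 motifs in this window. A promoter entry was found for 99 of the 127 genes lower by at least 1 and for 38 of the 51 higher by at least 1, with several promoters for some genes. The Nkx2-1 core occurred in 22 of the 117 promoters of the lower genes (18.8%), in 10 of the 50 promoters of the higher genes and in 17.45% of all 32851 promoters of the table. The Ets core occurred in 37.6%, 30.0% and 35.4% of these promoters, and the forkhead core in 2.56%, 4.0% and 3.65%. A match of these letters is a description and does not show binding.

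Targets of Fgf signaling in the epithelium were lower or level in the Etv5-low set. Of 19 targets and feedback regulators of Fgf and MAPK signaling, Etv5 itself among them, 8 were lower and 0 higher, and the median difference was −0.43 against 0.00 over all genes. That median was −0.17 with the mean of all spots of a gene and −0.19 in the arrays labelled control alone. Etv4, the partner of Etv5, had 6.92, 7.49, 7.61 and 7.97 in experimental 1 and 2 and control 1 and 2, against 9.39, 9.34, 9.37 and 9.38 in experimental 3 and 4 and control 3 and 4. The sets were 1.87 ± 0.22 apart, the values of the high set lay almost on one level, and those of the low set were spread over about 1 unit. The MAPK phosphatase Dusp4 (−1.18 ± 0.13), the signaling inhibitor Spry2 (−0.97 ± 0.16) and the Erk phosphatase Dusp6 (−0.55 ± 0.07) were also lower. For Spry2 this rests on the brightest spot, since a second spot above the median signal differed by 0.10. Etv1, the third gene of the Etv4 and Etv5 family, was not called (0.12 ± 0.16), and neither was Spry4 (−0.08 ± 0.20). Fgfr2, whose transcript the transgene shares in part, was not called either (−0.32 ± 0.20), and the sources do not say which part of the transcript its spots cover.

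**Figure D1:**
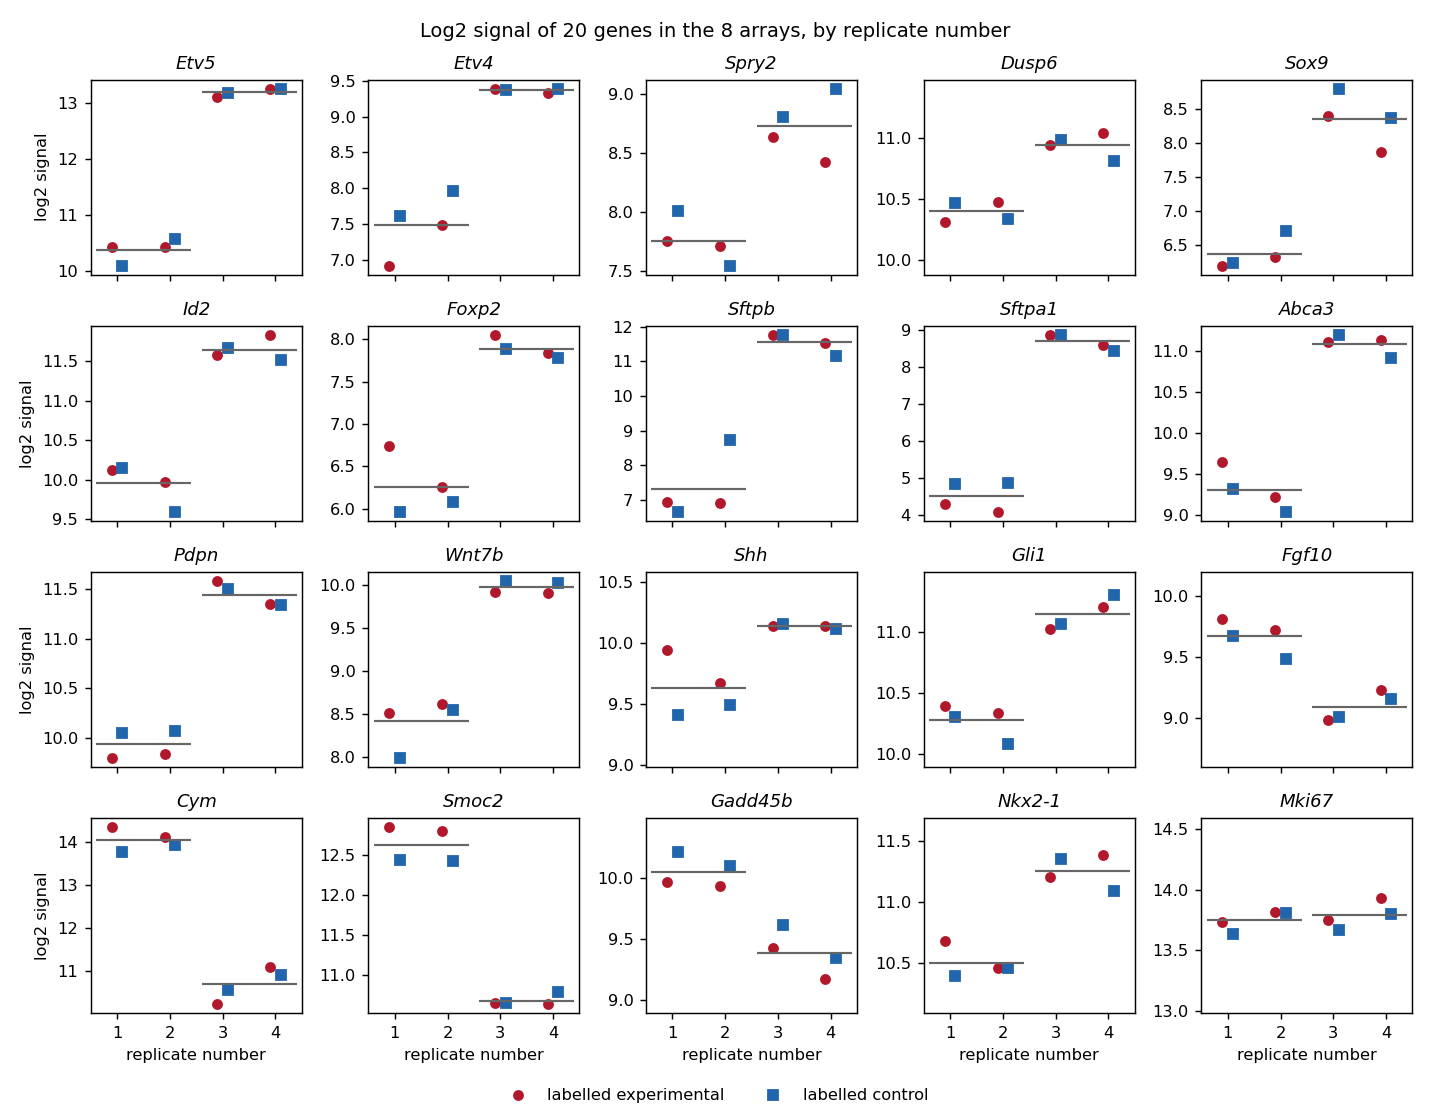
Log2 signal (y axis, its range set per gene and spanning at least 1.6 units) of 20 genes in each array by replicate number (x axis), with arrays labelled experimental as circles, arrays labelled control as squares and the mean of each set of 4 arrays as a line. In arrays of both labels, numbers 1 and 2 lie below numbers 3 and 4 for genes such as Etv5 and Sftpb and above them for Fgf10, Cym, Smoc2 and Gadd45b, while Mki67 overlaps.

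Factors of the distal tip progenitors followed the same split. Sox9, required for branching of the distal epithelium, had 6.20, 6.33, 6.24 and 6.72 in experimental 1 and 2 and control 1 and 2, against 8.39, 7.87, 8.79 and 8.36 in experimental 3 and 4 and control 3 and 4. The lowest array of the high set, experimental 4, still lay more than 1 unit above the highest of the low set, control 2 (−1.98 ± 0.22). Id2, an inhibitor of bHLH factors that marks the tips (−1.69 ± 0.15), the forkhead repressor Foxp2 (−1.63 ± 0.18) and the chromatin protein Hmga2 (−1.62 ± 0.11) were lower by similar amounts, and the homeobox gene Irx2 by less (−0.95 ± 0.09). Dimmer spots of Foxp2 and Hmga2 differed by −0.55 and −0.20. In all, 6 of the 16 genes of the distal tip list were lower and 0 higher, with a median of −0.44. The remaining 10 were not called.

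The AT2 list, like the others, was written with earlier results of these data known, so its counts are a description. It held 13 lower genes of 28, 12 of them by at least 1, and 0 higher genes, and the median was −0.72. Its lowest members, after Sftpb and Sftpa1, were Cxcl15, a chemokine of the lung epithelium (−3.61 ± 0.26), and Slc26a9, a chloride transporter (−3.03 ± 0.22), both with values near the floor in the low set. The lamellar body transporter Abca3 had 9.65, 9.23, 9.32 and 9.04 in experimental 1 and 2 and control 1 and 2, against 11.11, 11.13, 11.19 and 10.92 in experimental 3 and 4 and control 3 and 4 (−1.78 ± 0.14). Its sets were tight and far apart in the brightest of 3 spots, and the other 2, below the median signal, reached 0.27. Lpcat1, an enzyme of surfactant lipid synthesis (−1.43 ± 0.13), and the transcription factor Cebpa (−1.40 ± 0.14) were also lower. Sftpc, the surfactant protein C gene that is expressed early in the distal epithelium, had 14.43, 14.37, 14.54 and 15.30 in the low set and 15.98 to 15.99 in the high set. The high set thus lay at the ceiling of the scanner, and the difference of −1.33 ± 0.22 is a lower bound of the size.

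Genes of alveolar type 1 (AT1) cells were split among themselves. The surface glycoprotein Pdpn had 9.80, 9.84, 10.05 and 10.07 in experimental 1 and 2 and control 1 and 2, against 11.58, 11.35, 11.50 and 11.34 in experimental 3 and 4 and control 3 and 4 (−1.50 ± 0.09, no overlap), and Gprc5a, a retinoic acid-inducible receptor, was lower by a like amount (−1.53 ± 0.14). The scaffold protein gene Akap5 was the third member called (−0.71 ± 0.13), and of the 19 genes 3 were lower and 0 higher, with a median of −0.28. Hopx, a homeodomain cofactor, was not called (−0.37 ± 0.14, sets overlapping), and the water channel Aqp5 was at 2.62 to 4.22 in all 8 arrays, near the floor.

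Markers of the epithelium as a whole differed less. Nkx2-1, the factor that specifies lung epithelium, was lower (−0.76 ± 0.09), with 10.39 to 10.68 in the low set and 11.09 to 11.38 in the high set, and the tight junction genes Cldn6 (−0.67 ± 0.17) and Cldn7 (−0.61 ± 0.09) were lower too. A second, dimmer spot of Cldn7 differed by −0.06. The adhesion molecule Epcam differed by −0.33 ± 0.08 and was not called. Of the 24 genes measured in the pan-epithelial list 3 were lower and 0 higher (median −0.10). The mean of that list was 8.91 to 9.16 in the arrays numbered 1 and 2 and 9.16 to 9.28 in those numbered 3 and 4, so the 2 sets were separate by a narrow margin. In bulk tissue, fewer cells of a type and less RNA per cell cannot be told apart. Relative to the mean of the pan-epithelial list in the same array, the AT2 list was at −2.05, −1.91, −1.75 and −1.79 in experimental 1 and 2 and control 1 and 2, and at −0.84, −0.95, −0.95 and −1.07 in experimental 3 and 4 and control 3 and 4. The sets did not overlap on this relative scale (difference of means −0.92). The distal tip list differed by −0.51 on it, without overlap, and the AT1 list by −0.11, with overlap. With Epcam alone as the reference the AT2 and distal tip differences were −0.77 and −0.36, and that of AT1 was 0.036, on the other side of 0.

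**Figure D2:**
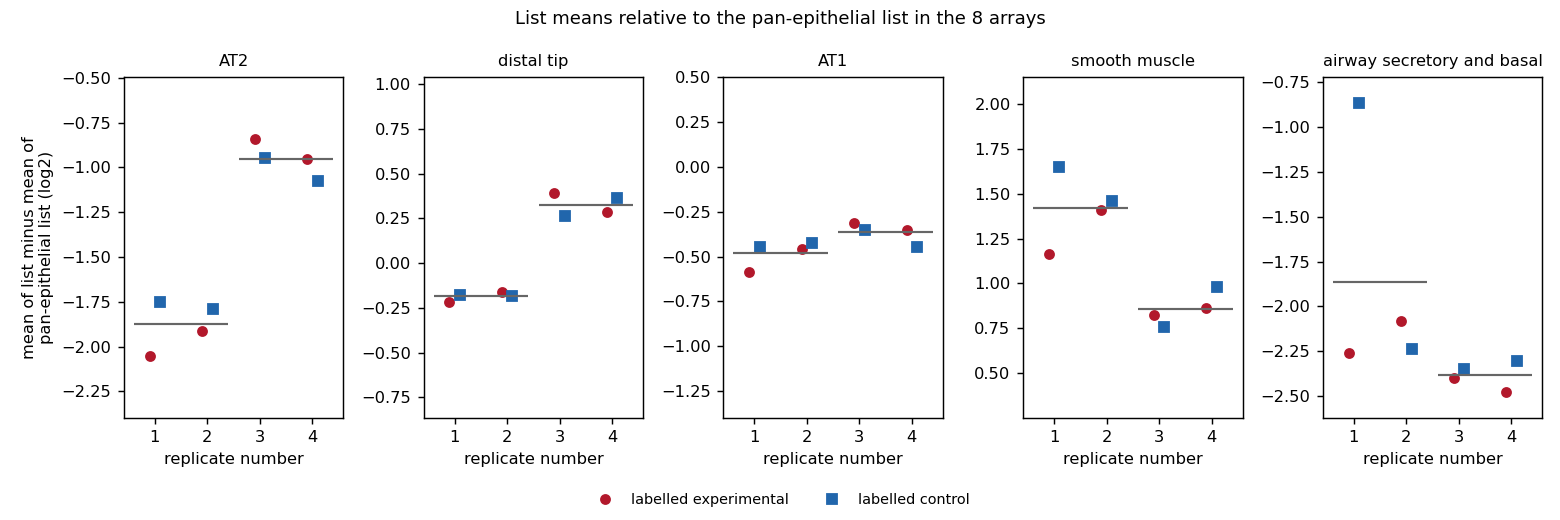
Mean log2 signal of 5 lists minus that of the pan-epithelial list in the same array (y axis, log2, equal spans in all panels) by replicate number (x axis), with circles for arrays labelled experimental, squares for arrays labelled control and a line for the mean of each set of 4. The AT2 and distal tip lists are lower in numbers 1 and 2, smooth muscle is higher there, AT1 is nearly level, and in the airway list control 1 stands apart.

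Airway genes were not lower with the distal genes. Of 18 airway secretory and basal genes 0 were lower and 2 were higher, Upk3a, a uroplakin (0.81 ± 0.32, or 0.53 without control 1), and Cldn10, a claudin of secretory cells (0.80 ± 0.06). Sox2, the factor of the proximal epithelium, had 7.65 to 8.07 in the low set and 7.34 to 7.87 in the high set and was not called (0.29 ± 0.17), and the secretory marker Scgb1a1, dim in all arrays, differed by 0.43 ± 0.59. The mean over the list reached 8.05 in control 1, whereas the remaining 7 arrays had 6.72 to 6.93. In control 1 Upk3a (7.89, against 6.69 to 6.84 in the other 3 arrays of its set) and the basal keratins Krt5 (8.66, against 2.73 to 3.67) and Krt15 (11.34, against 8.56 to 8.93) were high, and neither keratin was called. In sign 15 of the 18 genes were higher, with a median of 0.22 over all arrays and of 0.0083 without control 1, and the difference relative to the pan-epithelial list was 0.52 with that array and 0.19 without it. In the ciliated list 2 of 16 were higher, the microtubule protein gene Tppp3 (0.83 ± 0.07) and the ciliary transcription factor Rfx2 (0.67 ± 0.16), while Foxj1, the master factor of motile cilia, was not called (−0.02 ± 0.27). Rfx2 had no spot above the median signal, and its second spot differed by −0.20.

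Ligands and receptors between the layers differed in both directions. Fgf10 had 9.81, 9.72, 9.67 and 9.48 in experimental 1 and 2 and control 1 and 2, against 8.98, 9.22, 9.01 and 9.15 in experimental 3 and 4 and control 3 and 4 (0.58 ± 0.09). It was thus higher where Etv5 was lower, by 1.49-fold in its brightest spot, and its dimmer spots differed by 0.11 and 0.58 log2 units. Of the 15 ligands and receptors of the Fgf family Fgf18, a mesenchymal ligand, was also higher (0.64 ± 0.08), while Fgf9, made by epithelium and mesothelium (−1.15 ± 0.22), and Fgf1 (−0.63 ± 0.13) were lower. Fgf7, another ligand of Fgfr2b, was not called (0.23 ± 0.11).

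Of the 12 Hedgehog genes measured, the ligand Shh (−0.51 ± 0.12) and the mesenchymal effector Gli1 (−0.87 ± 0.09) were lower and 0 were higher. Gli1 had 10.40, 10.34, 10.30 and 10.08 in experimental 1 and 2 and control 1 and 2, against 11.02, 11.20, 11.06 and 11.30 in experimental 3 and 4 and control 3 and 4. The low values lay close together, as did the high values, in arrays of both labels. The second, dimmer spot of Gli1 differed by 0.04, and the receptor Ptch1, itself a Hedgehog target, overlapped between the sets (−0.35 ± 0.33).

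Of 19 Wnt ligands 2 were lower and 2 were higher. Wnt7b, an epithelial ligand of the lung, had 8.51, 8.61, 7.99 and 8.55 in experimental 1 and 2 and control 1 and 2, against 9.91, 9.90, 10.04 and 10.02 in experimental 3 and 4 and control 3 and 4 (−1.55 ± 0.15), and Wnt7a was lower by 1.05 ± 0.13. Wnt4 (1.14 ± 0.24) and Wnt11 (0.75 ± 0.20) were higher. Among 19 Wnt targets and feedback genes 4 were lower and 0 higher, led by Sp5, a transcription factor induced by beta-catenin (−2.89 ± 0.37), the receptor Fzd10 (−0.72 ± 0.19) and Tcf7 (−0.58 ± 0.13). The list as a whole did not follow them, since in sign 12 of the 19 were higher and 7 lower (median 0.10). Of 20 Bmp genes 4 were lower, among them the ligands Bmp7 (−1.24 ± 0.21) and Bmp4 (−0.52 ± 0.05). In the same list 1 was higher, the ligand Bmp2, a dim gene (1.03 ± 0.25). Of 18 Notch genes only the ligand Dll3, a dim gene, was called (0.50 ± 0.07, higher), and of 13 retinoic acid genes none was.

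**Figure D3:**
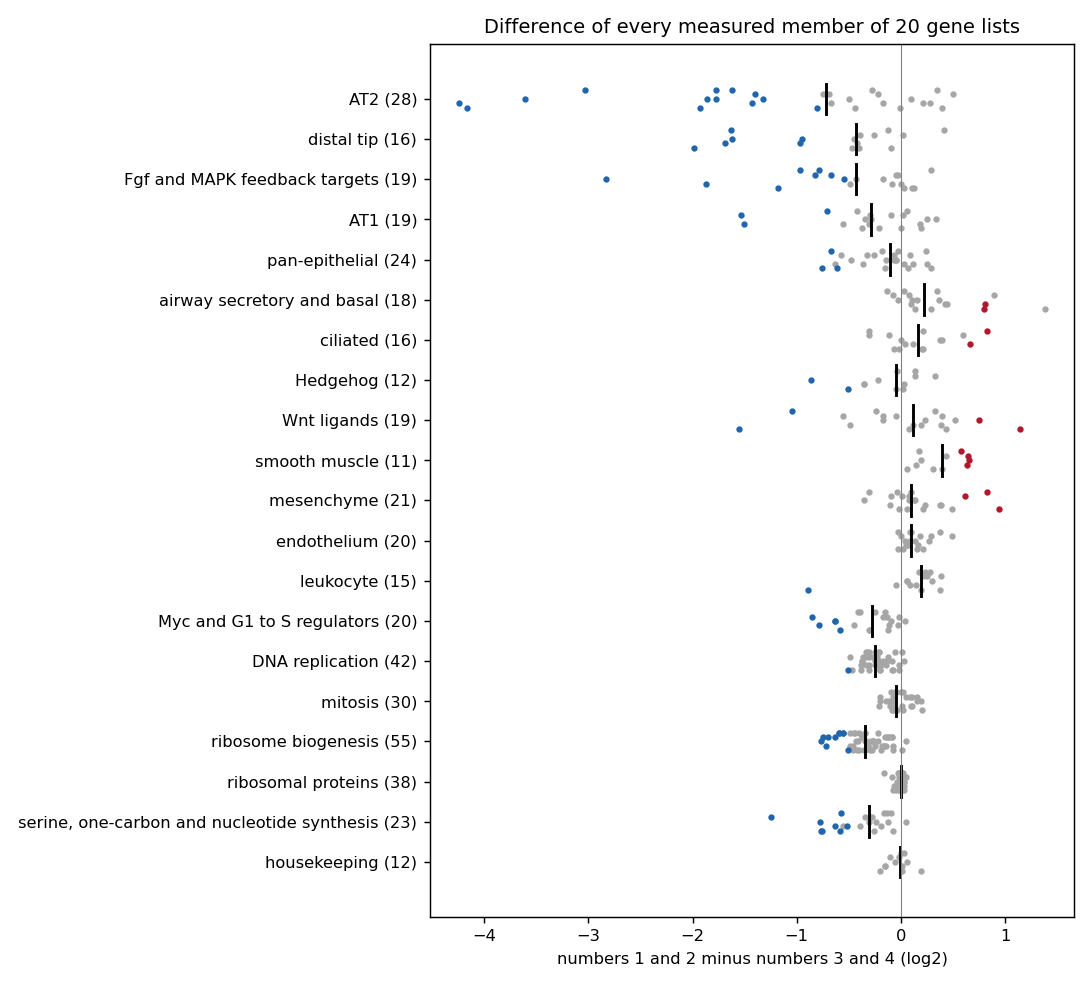
Difference between the sets, numbers 1 and 2 minus numbers 3 and 4 (x axis, log2), of every measured member (points, offset vertically for visibility) of 20 lists (y axis, number measured in parentheses), with called lower genes in blue, called higher genes in red, others in grey and the list median as a black bar. The medians run from −0.72 for AT2 to 0.40 for smooth muscle, and those of mitosis, ribosomal protein and housekeeping genes lie within 0.05 of 0.

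Some smooth muscle and mesenchymal genes were higher in the Etv5-low set, and the collagens that were called were lower. All 11 smooth muscle genes were higher in sign, 4 were called, and the median was 0.40. The contractile protein gene Cnn1 had 11.71, 12.03, 12.38 and 12.15 in experimental 1 and 2 and control 1 and 2, against 11.21, 11.39, 11.55 and 11.49 in experimental 3 and 4 and control 3 and 4 (0.66 ± 0.16). Experimental 1 was the lowest of the higher set and lay just above control 3, the highest of the other. The smooth muscle myosin Myh11 (0.64 ± 0.09), the actin-binding protein gene Tagln (0.64 ± 0.10) and Myocd, a coactivator that drives smooth muscle genes (0.57 ± 0.12), were the other 3. Of 21 mesenchymal genes 3 were higher and 0 lower, the proteoglycans Lum (0.94 ± 0.25) and Dcn (0.83 ± 0.17) and elastin, Eln (0.61 ± 0.09), with a median of 0.10. A second spot of Eln above the median signal differed by 0.22. Of 20 endothelial genes 0 were called (median 0.09), with the largest differences in Erg (0.50 ± 0.11, just under the limit before rounding) and Esam (0.37 ± 0.08). Of 26 integrins and laminins the epithelial laminin Lama3 (−1.27 ± 0.24) and its receptor subunit Itga3 (−0.79 ± 0.16) were lower and Itga9 was higher (0.52 ± 0.07), and of 23 collagen genes Col9a1 (−1.20 ± 0.29) and Col9a3 (−0.55 ± 0.11) were lower. A second, dimmer spot of Col9a1 differed by 0.17, and in sign 12 of the 23 collagen genes were higher (median 0.07).

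Growth-related genes separated by function. Myc, a regulator of growth and ribosome production, had 8.37, 8.22, 8.34 and 8.32 in experimental 1 and 2 and control 1 and 2, against 8.96, 9.07, 8.69 and 8.86 in experimental 3 and 4 and control 3 and 4 (−0.58 ± 0.09). Cyclin D1, Ccnd1, was lower as well (−0.63 ± 0.16), with a step of −0.99 within the arrays labelled experimental and of −0.28 within those labelled control. With E2f3, Ccne2 and Cdk2, 5 of 20 Myc and G1 to S regulators were lower and 0 higher (median −0.27).

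Of 55 ribosome biogenesis genes 10 were lower and 53 were negative in sign (median −0.34), led by Rrp9, a component of a small nucleolar ribonucleoprotein (−0.77 ± 0.15), Polr1b, a subunit of RNA polymerase I (−0.75 ± 0.11), and the nucleolar GTPase Gnl3 (−0.72 ± 0.19). A second, dimmer spot of Polr1b differed by 0.07. Ribosomal protein genes themselves did not follow, with 0 of 38 called and a median of 0.00, many of them near the ceiling. Of 23 enzymes of serine, one-carbon and nucleotide synthesis 8 were lower and 0 higher (median −0.31), such as Shmt1 (−1.25 ± 0.30), Mthfd2 (−0.77 ± 0.15) and Phgdh, the first enzyme of serine synthesis (−0.75 ± 0.11). A second, dimmer spot of Shmt1 differed by −0.39. DNA replication genes were lower in sign in 40 of 42 (median −0.24), but only Cdc6, a licensing factor, reached the least difference counted (−0.50 ± 0.11). Of 30 mitosis genes 0 were called (median −0.04), and Mki67, the common marker of cycling cells, had 13.64 to 13.82 in the low set and 13.67 to 13.93 in the high set (−0.04 ± 0.07).

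Of 13 growth arrest genes 1 was higher, Gadd45b, a stress-induced growth inhibitor, with 9.96, 9.93, 10.21 and 10.10 in experimental 1 and 2 and control 1 and 2, against 9.42, 9.17, 9.62 and 9.34 in experimental 3 and 4 and control 3 and 4 (0.67 ± 0.11). The gene of the Cdk inhibitor p21, Cdkn1a, was not called (0.33 ± 0.23). The p53 target list held 2 higher genes and 1 lower gene of 13, with the pro-apoptotic Bbc3 (0.79 ± 0.14) and Trp53inp1 (0.77 ± 0.09) higher and the death receptor Fas lower (−1.60 ± 0.29, although its second spot above the median signal differed by −0.19). A dimmer spot of Trp53inp1 differed by 0.23. The early response genes Fos (0.71 ± 0.18) and Jun (0.64 ± 0.14) and the heat shock gene Hspa1a (0.60 ± 0.19) were higher, 3 of the 18 genes of their list. Fos had no spot above the median signal. Of 20 hypoxia and glycolysis genes Hk2 was lower (−0.86 ± 0.14) and Ndrg1 higher (0.82 ± 0.09).

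The ends of the ranking held genes of very different kinds. Among genes whose brighter set lay above the median signal of all genes, 20 were lower by 2 or more log2 units and 2 were higher. Besides Slco4c1, Sftpb, Sftpa1, Cxcl15, Slc26a9 and Sp5, described above, the 12 lowest genes were Myh7, Pthlh, Dram1, Adamts18, Retnla and Rbpjl. Myh7, a myosin heavy chain of heart and slow muscle, had 3.82, 5.30, 5.15 and 5.58 in experimental 1 and 2 and control 1 and 2, against 8.92, 8.69, 9.08 and 8.66 in experimental 3 and 4 and control 3 and 4 (−3.88 ± 0.40). It was the only one of 16 cardiac muscle genes that was called. The mean of that list was 7.24 to 7.61 in the low set and 7.28 to 7.81 in the high set, so the 2 sets overlapped, and the second spot of Myh7 differed by −0.36. Dram1, a lysosomal membrane protein of autophagy (−3.09 ± 0.18), and Pthlh, the parathyroid hormone-related protein made by lung epithelium (−3.21 ± 0.36), each rested on a single spot. Rbpjl, a transcription factor best known from the pancreas, differed by −2.84 ± 0.25 and similarly in its second spot (−2.54), whereas the 4 spots of the secreted protease gene Adamts18 ranged from −3.35 to 0.49. Retnla, a secreted resistin-like protein, was near the floor in the low set (−2.91 ± 0.24).

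**Figure D4:**
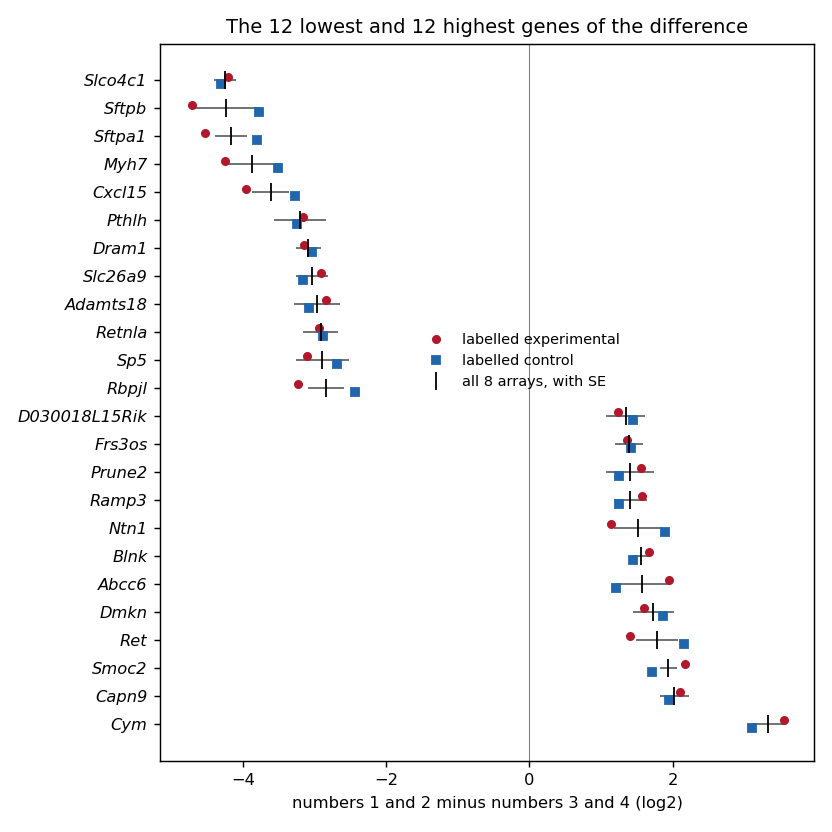
Difference between the sets (x axis, log2) of the 12 lowest and 12 highest genes with no overlap (y axis), as the mean over all 8 arrays with its SE (bar and line) and separately in arrays labelled experimental (circles) and control (squares). The lowest genes reach −4.25 and the highest, apart from Cym at 3.34, lie at 2.02 or below.

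On the higher side the differences were smaller. Smoc2, a secreted matrix protein, had 12.84, 12.79, 12.44 and 12.42 in experimental 1 and 2 and control 1 and 2, against 10.65, 10.64, 10.65 and 10.79 in experimental 3 and 4 and control 3 and 4 (1.94 ± 0.12), and all 3 of its spots were higher. Dmkn, a secreted protein of stratified epithelium (1.73 ± 0.29), Blnk, an adaptor of B-cell receptor signaling (1.56 ± 0.13), and Ntn1, a guidance molecule (1.52 ± 0.33), were higher too. Capn9, a calpain of the digestive tract (2.02 ± 0.20), Ret, the receptor for Gdnf ligands (1.78 ± 0.29), Abcc6, a membrane transporter (1.58 ± 0.37), Ramp3, a partner of calcitonin-type receptors (1.41 ± 0.23), and Prune2 (1.41 ± 0.34) were dimmer, with no spot whose mean over the 8 arrays was above the median signal. The second spot of Capn9 differed by 0.14 and the 7 spots of Prune2 ranged from −0.25 to 1.41. Frs3os (1.39 ± 0.19) and 1 unnamed transcript completed the 12.

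Over all genes the arrays were alike and the split was their leading difference. Pairs of arrays correlated across genes at r = 0.988 to 0.993 within the sets (12 pairs) and at 0.986 to 0.991 across them (16 pairs). The first principal component held 22.8% of the variance and was positive in all 4 arrays numbered 1 and 2 and negative in all 4 numbered 3 and 4, and the second (16.1%) set control 1 (−42.8) against experimental 1 (38.5). Across the 12291 genes above the median signal, which are not independent replicates, the difference within the arrays labelled experimental correlated with that within the arrays labelled control at r = 0.66, and over all genes at 0.26. Other markers that could move with the split were checked. Of 15 leukocyte genes 1 was lower, Cd14 (−0.89 ± 0.21, and −0.40 in a second spot above the median signal). In sign 13 of the 15 leukocyte genes were higher, with a median of 0.19. Of 3 embryonic globins and 14 squamous genes 0 were called, and 0 of 12 housekeeping genes were. Of the lists not yet given, 1 gene was called higher among 13 neuroendocrine genes (Scg5, 0.90 ± 0.11) and among 7 mesothelial genes (Rspo1, 0.73 ± 0.15), and 1 was called lower among 10 adult globin and erythroid genes (Tfrc, −0.66 ± 0.11) and among 18 tRNA synthetases (Vars, −0.55 ± 0.13). Of 12 neuronal and neural crest genes Tubb3 was lower (−0.58 ± 0.25) and Ret higher. Scg5, Tubb3 and Ret had no spot above the median signal. Of 25 cholesterol and fatty acid genes and 12 interferon genes 0 were called. The part of other cell types in the difference was not tested. Xist was 2.98 to 3.63 in the arrays numbered 1 and 3 and 7.45 to 8.21 in those numbered 2 and 4, and the Y-linked Kdm5d ran the opposite way, so each set held 2 lungs of either sex and sex did not move with the split.

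**Figure D5:**
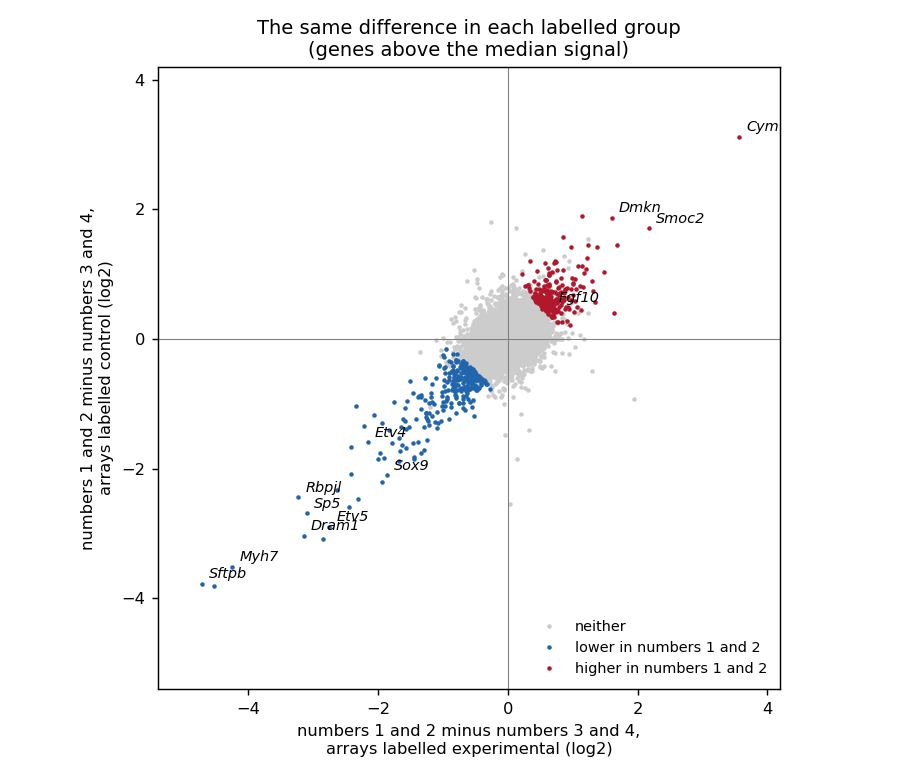
Difference between the sets within the arrays labelled control (y axis, log2, 2 arrays against 2) against the same difference within the arrays labelled experimental (x axis, log2), for the 12291 genes above the median signal, with genes called lower in blue, genes called higher in red and the others in grey. Etv5, Sftpb and Myh7 lie far down in both labels and Cym far up, and the 2 differences correlate across genes at r = 0.66.

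The labels themselves allow tests. The plain labelled contrast and an ordinary t-test, without the variance moderation of limma, leave the split out. The fit with a block and the interaction take it into the design. Between the arrays labelled experimental and control, limma called 0 of 24583 genes (0%) after Benjamini-Hochberg adjustment at 0.05, and 876 genes had an unadjusted p under 0.05, of which 414 were higher in experimental and 462 lower. Since Etv5 and Etv4 did not follow the labels, this count does not measure the absence of an effect of the transgene, and whether the titles match the genotypes of the lungs was not tested. The ordinary t-test also gave 0 adjusted and 788 unadjusted, and limma with the split as a block gave 0 and 1036. The unadjusted counts of 876, 788 and 1036 are each under a share of 0.05 of the genes, which chance alone would give. Whether the labelled difference was larger in one set than in the other was tested as an interaction of label and split. In it 0 genes passed (0%), and 1181 had an unadjusted p under 0.05, also under that share. In that test 1 gene passed without experimental 2 (T), without experimental 3 (Ces1h), without control 2 (Platr10) and without control 4 (4930502A04Rik), and 0 without any other array. For Etv5 the interaction was 0.13 ± 0.27 (SE), given as a size only, since the sets were chosen by Etv5 and a test on it is not informative. Because the fits rest on 4 arrays of each label, and on 2 in each combination of label and set, the number of arrays limits the precision.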

How the data were processed

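Total RNA of the left lobe of 8 E14.5 lungs was measured on 1-colour (Cy3) Agilent mouse arrays after amplification. The authors used Mapix 6.5.0 for spot extraction and limma 3.30.13 under R 3.3.2 for processing (normexp background correction on negative control spots, logarithm, quantile normalization between arrays). The deposited values are these log2 signals of 62976 spots per array, from 2.00 to 16.00, with a median of 4.43 on every array. The sources do not state the base 2, which was inferred from the highest value. Replicate spots and genes were neither averaged nor centred. Detection above background was not available per spot, so values near the floor and the ceiling are compressed, and precision is limited by the number of arrays.

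The platform annotation named 43941 spots with 1 symbol and left 19035 unnamed, and symbols were updated through RefSeq accessions (33704 named spots matched, 1424 changed). Spots lacking a value (2) were left out. Each of the 24583 genes was represented by its spot of highest mean. The group and number of each array were taken from its title.

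The members, the lists (42 lists of 819 entries, 790 measured, and a panel of 37 genes) and the rules were chosen with earlier results of these data known. The difference between sets was therefore described and not tested. Named genes were the panel, the 12 lowest and 12 highest genes with no overlap, a difference of at least 1 and a brighter set above the median of all genes (5.79), and up to 4 members of largest difference in each list described. Fgfr2 and the genes that pass the interaction only without 1 array were named after their values were seen. In the panel 23 genes were lower, 2 higher and 12 neither.

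Labelled contrasts were two-sided, unpaired limma fits (lmFit, eBayes; limma 3.58.1, R 4.3.3) with Benjamini-Hochberg adjustment over all genes. The fits were tested on simulated data. Nothing says that a number marks a litter or day, so a p-value reflects only the spread among these samples. The 2 arrays of a number deviated together from their group means (r = 0.109, 0.146, 0.124 and 0.117 for numbers 1 to 4, all above 0.1), and less once the set means were taken out (0.034, 0.034, 0.027 and 0.027). The number is nested in the split, which cannot be blocked by it. Promoters were taken from the RefSeq table. Alternatives were the mean of all spots, a filter on dim genes, other centrings, each label alone, and leaving out each array.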

Additional observations from a re-analysis of the deposited data

Results flagged for a closer look

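Within a set of 4 arrays, 1 array lay far from the other 3 in 27 of 502 values searched (the panel and other named genes, the list means and the relative scores, in each set), where chance flags about 1 in 20. The number found is close to that share, and the values are not independent of each other. Sftpb was 8.72 in control 2 against 6.66 to 6.94 in the other 3 arrays numbered 1 and 2, and its difference between the sets was −4.24 with that array and −4.71 without it.

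Among the arrays numbered 1 and 2, control 1 stood apart in 8 values. These overlap, since Krt5, Krt15 and Upk3a enter the mean of the airway list and its relative score. The mean of the airway secretory and basal list was 8.05 in it against 6.81 to 6.91 in the other 3, and the same list relative to the pan-epithelial list was at −0.87 against −2.26 to −2.08. Of its genes Krt5 was 8.66 against 2.73 to 3.67, Krt15 was 11.34 against 8.56 to 8.93 and Upk3a was 7.89 against 6.69 to 6.84. The mean of the squamous list was 5.90 against 5.25 to 5.35, Dcn was 13.36 against 12.70 to 12.81, and Wnt7b was 7.99 against 8.51 to 8.61. Experimental 2 had 11.19 for Tppp3 (11.27 to 11.28 in the others) and 7.77 for Rrp9 (7.43 to 7.46), and experimental 1 had −2.75 for the relative neuroendocrine score (−2.55 to −2.51).

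Among the arrays numbered 3 and 4, experimental 4 had a mean of 10.17 for the Myc and G1 to S regulators (10.06 to 10.08 in the others). It also had 5.22 for Blnk (5.42 to 5.45), 9.91 for Fgf18 (10.18 to 10.22), 4.15 for Dll3 (4.07 to 4.08), 11.39 for Mcm2 (10.93 to 10.995) and 8.03 for Sesn2 (8.71 to 8.80). Control 4 had a mean of 7.26 for the ciliated list (7.48 to 7.51), 10.79 for Smoc2 (10.64 to 10.65), 10.87 for Gprc5a (11.13 to 11.18), 6.01 for Tubb3 (5.65 to 5.71) and 7.35 for Cdc45 (7.59 to 7.62). Control 3 had 4.54 for D030018L15Rik (5.30 to 5.43), 5.60 for Bmp2 (4.64 to 4.78) and 1.68 for the relative mesenchyme score (1.77 to 1.78). Experimental 3 had 4.65 for Irf7 (5.21 to 5.31).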

How the results depend on the processing

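No called panel gene changed direction in any alternative. A called gene keeps its direction by construction where arrays are left out or 1 label is used alone. Only the centrings and the mean of all spots could have reversed it. Etv1, Spry4, Aqp5, Foxj1 and Mki67, which were not called, had both signs. Of 105 called genes that were named or led a list, 1 moved by over 1.5 times without 1 array (Upk3a, 0.53 without control 1). These genes were picked for sets that did not overlap, and this choice itself limits such movement. With only genes above the median signal, 284 genes were lower and 218 higher (76 and 18 by at least 1). Centring on the pan-epithelial list moved the median of all genes by 0.18 and gave 198 lower and 1203 higher (84 and 135), and centring on housekeeping genes gave 398 and 452. With no minimum difference 1325 were lower and 1271 higher. The mean of all spots gave 31 genes higher by at least 1, shared 332 of the 452 lower and 263 of the 380 higher calls, and took the Fgf target median to −0.17. Arrays labelled experimental alone gave 1671 lower and 1454 higher (301 and 208), with medians of −0.36 for the distal tip and −0.19 for AT1. Control arrays alone gave 1471 and 1505 (242 and 247), with −0.19 for Fgf targets, −0.18 for AT1 and −0.21 for the pan-epithelial list. Sets of 2 or 3 arrays overlap less often by construction, and without 1 array the counts were 549 to 640 lower and 498 to 571 higher (571 without control 2), and 129 to 155 and 63 to 80 by at least 1 (80 without experimental 3). List medians without 1 array were −0.47 to −0.33 for Fgf targets, −0.48 to −0.34 for the distal tip and −0.43 to −0.25 for serine, one-carbon and nucleotide synthesis. With Epcam as the reference the relative difference was −0.77 for AT2, 0.036 for AT1, −0.36 for the distal tip, 0.51 for ciliated and 0.43 for neuroendocrine genes. With the replicate block, the labelled contrast gave 0 genes (1182 unadjusted) and the interaction 0 (1309), and without 1 array the interaction gave 0 to 1. The cause of these changes was not tested. Signal over background limits the differences of dim genes, and the floor and ceiling compress others.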
